A study of Mus musculus with 4 samples.

Results

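The genes described here are 34 genes of the ATF4 amino acid response, taken by name from a fixed list, out of 27357 genes measured in isolated mouse Leydig cells. The list was chosen with earlier results of these data known. All 34 were found in the tables under their listed symbols. Of these, 33 reached 1 RPKM, a read number divided by exonic length and by sequencing depth, in at least 2 libraries and entered the test, among 12391 genes tested. Vldlr did not.

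Leydig cells, which lie between the testis tubules and make androgens, came from male mice that were either WT or C2orf74 KO, with 2 libraries of each genotype. Both genotypes received a high-fat diet for 12 weeks from an age of 8 weeks, so no library represents another diet. The labels give neither the strain, the deleted part of the gene, the number of animals behind a library nor the purity of the isolation. Since separate animals are not stated either, the p-values reflect only how these libraries vary, which may be technical variation.

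ATF4 is a basic leucine zipper transcription factor that is controlled largely through translation. When the kinases Eif2ak4 (sensing uncharged tRNA), Eif2ak3 (endoplasmic reticulum stress), Eif2ak1 (haem lack and mitochondrial stress) or Eif2ak2 (double-stranded RNA) phosphorylate eIF2alpha, general protein synthesis slows while the Atf4 mRNA is translated more. ATF4 then pairs with C/EBP proteins and other partners and activates genes that make, import and charge amino acids, so the mRNA level of Atf4 is not by itself a measure of the response.

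The libraries held between 13847807 and 19764003 recovered reads, with 12133 to 12242 genes at 1 RPKM or more in each. The mouse gene of C2orf74, 1700093K21Rik, was at 0 in both KO libraries and in WT replicate 1 and at 0.126 RPKM (4 reads) in WT replicate 2, so it cannot check the labels at this depth: 3 reads, the limit that a count of 0 allows, are 0.0756 to 0.108 RPKM. The Leydig markers spanned a wide range of levels, and the lowest, Cyp17a1, had 0.900 and 1.90 RPKM in WT and 2.12 and 1.47 in KO. They went opposite ways between the genotypes, with 1 of 9 lower and 3 higher at an unadjusted p under 0.05. Of all genes tested, 7.42% were lower and 4.33% higher at that p. Insl3, a Leydig hormone, had 164 and 133 RPKM in WT and 73.02 and 81.5 in KO (log2 change -0.93, limma adjusted p = 0.154), and Cyp11a1, which starts steroid synthesis, had 415 and 402 in WT and 360.3 and 299.7 in KO. The steroid dehydrogenases Hsd3b6 (484 and 459.6 in WT, 673 and 819.6 in KO) and Hsd3b1 (323 and 261 in WT, 410.2 and 449 in KO) were higher in both KO libraries. Summed Sertoli markers stayed between 2.17 and 2.44 RPKM. The germ cell markers summed to 1.44 and 0.963 in WT and to 2.98 and 2.59 in KO. Among them Prm1 had 0.308 and 0.404 in WT and 1.22 and 1.08 in KO. Ddx4 was not higher in KO, with 0.503 and 0.294 in WT and 0.296 and 0.218 in KO. The 8 macrophage markers summed to 1280 and 972 RPKM in WT but to 669 in KO replicate 1 and 1051 in KO replicate 2. Most of this sum was Lyz2, with 970 and 736 in WT, 504 in KO replicate 1 and 811 in KO replicate 2. All 7 macrophage markers tested had log2 changes below 0 (53.8% of all genes), with a median of -0.40. For 3 of the 7 both KO libraries lay below both WT libraries (25.0% of all genes). The 6 endothelial markers summed to 19.7 and 21.9 in WT and to 13.2 and 10.2 in KO, and the 5 myoid markers to 215 and 243 in WT and 186 and 170.02 in KO. In bulk RNA, fewer cells of a type and less RNA per cell cannot be told apart, and the part of these cells in the differences given here was not tested.

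The DNA element through which ATF4 and C/EBP proteins act has the core TGATGNAA. The core occurs beside the start of some genes that lay lower in KO, but also of genes that did not. It was searched on both strands in RefSeq promoters of GRCm38.p6, from 250 bases before to 50 after the start. A promoter was matched for 30 of the 34 genes. The core was present in 11 of these (36.7%), against 1219 of 27025 genes with a promoter in the table (4.51%). The genes were listed as ATF4 responders, so this share describes the list and not the KO. Windows of 100 bases follow on the strand of the gene, 5′ to 3′, with the core in capitals in either orientation. The first 4 belong to genes with an unadjusted p under 0.05, and the last 2 to genes that did not lie lower in both KO libraries.
Asns, chr6:7693178-7693277, minus strand: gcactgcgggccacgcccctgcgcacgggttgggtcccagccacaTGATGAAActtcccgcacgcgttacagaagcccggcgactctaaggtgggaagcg
Gars, chr6:55037926-55038025, plus strand: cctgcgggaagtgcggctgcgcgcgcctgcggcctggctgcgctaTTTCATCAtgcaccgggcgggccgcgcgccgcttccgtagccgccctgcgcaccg
Slc1a4, chr11:20332664-20332763, minus strand: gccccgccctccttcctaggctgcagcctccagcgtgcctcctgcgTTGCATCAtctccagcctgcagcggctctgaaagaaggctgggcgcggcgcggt
Trib3, chr2:152344011-152344110, minus strand: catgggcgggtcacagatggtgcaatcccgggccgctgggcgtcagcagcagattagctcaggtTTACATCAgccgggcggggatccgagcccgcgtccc
Slc7a11, chr3:50443625-50443724, minus strand: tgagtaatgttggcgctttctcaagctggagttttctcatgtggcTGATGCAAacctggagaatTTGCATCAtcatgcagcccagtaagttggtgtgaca
Chac1, chr2:119351004-119351103, plus strand: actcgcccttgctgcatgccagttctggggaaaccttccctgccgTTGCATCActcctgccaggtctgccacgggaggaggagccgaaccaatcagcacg

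The core begins 23 bases before the start in Asns, 30 in Gars and 4 in Slc1a4, and 14 bases after it in Trib3. Slc7a11, whose libraries differed most between the KO samples among the transporters, holds 2 cores in opposite orientation, at 66 and 47 bases before the start. Among the 9 genes with an unadjusted p under 0.05 the core was found in 4, and among 20 others tested in 6, which are shares of 44.4% and 30.0%. No match says only that these letters are not in the window. A matching core is a description and does not show that ATF4 is bound there in Leydig cells.

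Most of the genes lay slightly lower in KO, and none passed the test over all genes. Because the list was chosen with earlier results known, its counts and the shares of all genes beside them are a description. They are not an independent test of the list. Of the 33 tested, 29 had a log2 change below 0, against 53.8% of all genes tested, and the median log2 change was -0.19, against -0.02 over all genes. Both KO libraries lay below both WT libraries for 19 of the 33, where this held for 25.0% of all genes, and above them for 0, where this held for 19.7%. At an unadjusted p under 0.05, 9 of the 33 were lower and 0 higher, against 7.42% and 4.33% of all genes. With limma and Benjamini-Hochberg adjustment 0 of the 33 passed an FDR of 0.05 (0.0% of all genes), and the smallest adjusted p of the list was 0.232 for Slc1a4. Voom on recovered reads, which covered 30 of the genes, also passed 0 at that FDR and had 8 lower and 0 higher at an unadjusted p under 0.05, with 7.02% of the 10855 genes in that fit lower. An exact permutation test of a single gene cannot go below p = 0.333 with 2 libraries against 2. The count of 9 moved when a library was left out: leaving out WT replicate 1 gave 2 (2.68% of all genes lower at that p in that fit), WT replicate 2 also 2 (3.47%), KO replicate 1 gave 19 (12%) and KO replicate 2 gave 7 (9.43%). It was 5 of 33 under quantile normalization (6.04% of all genes).

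**Figure D1:**
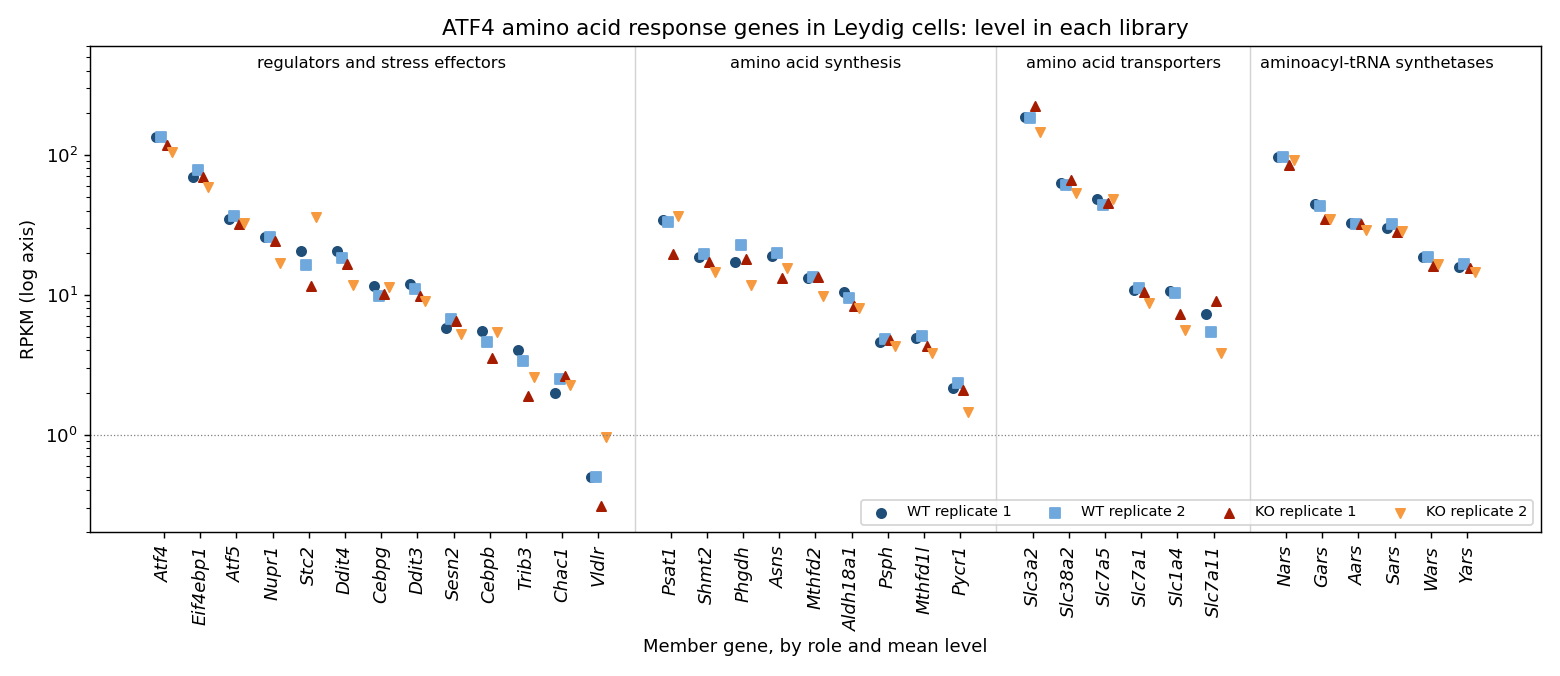
RPKM of the 34 genes in each of the 4 libraries, on a log axis, grouped by role and ordered by mean level, with 1 point per library and a dotted line at 1 RPKM. Slc3a2 and Atf4 have the highest levels of the list, Vldlr lies below 1 RPKM, and the KO libraries are far apart for Stc2, Psat1 and Slc7a11.

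Atf4, the regulator itself, was among the most abundant of the list and lay somewhat lower in KO. Its level was 134 and 134 RPKM in the WT libraries and 118 and 104 in the KO libraries, and the genotypes did not overlap. WT averaged 134 ± 0.235 RPKM and KO 111 ± 9.94 (n = 2 each, SD), which is 82.9% of WT. The log2 change was -0.27 ± 0.10 (SE; limma adjusted p = 0.411). Atf5, a related factor that is likewise translated under eIF2alpha phosphorylation, had 34.8 and 36.6 RPKM in WT and 32.03 and 32.4 in KO. Its groups did not overlap either, but the log2 change of -0.14 had a 95% interval from -0.34 to 0.05. The C/EBP partners did not separate the genotypes. Cebpb had 5.52 and 4.58 RPKM in WT and 3.52 and 5.42 in KO, while Cebpg had 11.5 and 9.80 in WT and 10.1 and 11.4 in KO.

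Trib3, a pseudokinase that is induced by ATF4 and restrains it in turn, had the largest difference among the stress effectors. Its RPKM values were 4.01 and 3.36 in WT and 1.89 and 2.60 in KO, from 63 to 118 reads per library. Both KO libraries lay below both WT libraries, with a KO mean at 60.8% of WT and a log2 change of -0.54 ± 0.15 (SE, n = 2 each; limma adjusted p = 0.329). Ddit3, which encodes the pro-apoptotic factor CHOP, had 12.02 and 11.0 RPKM in WT and 9.86 and 9.07 in KO. Its log2 change was -0.26 ± 0.09, and 3.97% of its exonic bases are shared with Mars on the opposite strand. Ddit4, an inhibitor of the growth kinase mTORC1, had 20.6 and 18.4 RPKM in WT and 16.5 and 11.8 in KO. The KO libraries were again below WT, but KO replicate 2 lay much lower than KO replicate 1. Its log2 change was -0.45 ± 0.17.

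The other stress effectors were closer to their WT levels or split between the KO libraries. Nupr1, a small stress-induced chromatin protein, had 26.02 and 25.7 RPKM in WT and 24.2 in KO replicate 1, but 16.8 in KO replicate 2. Eif4ebp1, a brake on cap-dependent translation, had 69.8 and 77.4 in WT and 69.1 and 58.6 in KO. Both genes had KO libraries below both WT libraries and 95% intervals of the log2 change that included 0. Chac1, which degrades glutathione and is often a strong ATF4 target, stood at only 1.99 and 2.51 RPKM in WT and 2.65 and 2.26 in KO, with a log2 change of 0.09 and an interval from -0.26 to 0.45. Sesn2, a leucine sensor that inhibits mTORC1, had 5.78 and 6.66 RPKM in WT and 6.51 and 5.23 in KO. For Chac1 and Sesn2 the genotypes overlapped.

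Stc2, a secreted glycoprotein, showed the widest gap between the KO libraries of the whole list. It had 20.5 and 16.2 RPKM in WT, 11.5 in KO replicate 1 and 36.02 in KO replicate 2. The KO libraries thus lay on either side of WT, and the log2 change of 0.16 had an interval from -1.14 to 1.46. The change was -0.62 without KO replicate 2 and 0.94 without KO replicate 1. Vldlr, a lipoprotein receptor, followed the same order at a level below the filter, with 0.502 and 0.496 RPKM in WT, 0.310 in KO replicate 1 and 0.965 in KO replicate 2.

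All 9 genes of amino acid and folate synthesis had log2 changes below 0, with a median of -0.26. For 5 of them both KO libraries lay below both WT libraries (25.0% of all genes), and for 3 the change was lower at an unadjusted p under 0.05 (7.42% of all genes). Asns, which makes asparagine from aspartate and glutamine and is a classical ATF4 target, had 19.1 and 20.02 RPKM in WT and 13.3 and 15.5 in KO. The KO mean was 73.6% of WT, with a log2 change of -0.42 ± 0.10 (SE, n = 2 each; limma adjusted p = 0.282). Over 12 alternatives without a reapplied filter, its log2 change ranged from -0.52 to -0.32. Asns lay lower in each KO library, most in KO replicate 1.

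The serine pathway was uneven. Phgdh, its first enzyme, had 17.1 and 22.7 RPKM in WT and 17.9 and 11.7 in KO, so that KO replicate 1 lay within the WT range and KO replicate 2 below it. Psat1, the next enzyme, showed the reverse order, with 34.1 and 32.9 in WT, 19.5 in KO replicate 1 and 36.3 in KO replicate 2. Psph, the last enzyme, had 4.60 and 4.82 RPKM in WT and 4.75 and 4.28 in KO, though 10.4% of its exonic bases are shared with Cct6a on the opposite strand. None of these 3 enzymes separated the genotypes. For Psat1 the log2 change was -0.32 with all libraries, -0.75 without KO replicate 2 and 0.11 without KO replicate 1.

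Serine feeds mitochondrial one-carbon metabolism, and of its enzymes in the list Shmt2, Mthfd1l and Mthfd2 each had the lowest level in KO replicate 2. Shmt2, which splits serine into glycine and a one-carbon unit, had 18.6 and 19.4 RPKM in WT and 17.03 and 14.5 in KO (log2 change -0.26, interval -0.53 to 0.0022). Mthfd1l, which releases formate, had 4.93 and 5.09 in WT and 4.30 and 3.83 in KO (log2 change -0.25 ± 0.10). Both had KO libraries below WT. Mthfd2, the dehydrogenase and cyclohydrolase between them, had 13.3 and 13.3 RPKM in WT and 13.4 in KO replicate 1, but 9.87 in KO replicate 2. Other mitochondrial enzymes of the pathway, outside the list, differed among themselves: Aldh1l2 had 2.51 and 2.36 RPKM in WT, 2.93 in KO replicate 1 and 2.02 in KO replicate 2 (log2 change 0.0050), and Mthfd2l, below the filter, had 0.989 and 0.866 in WT, 0.710 in KO replicate 1 and 0.792 in KO replicate 2. In proline synthesis, Aldh18a1 had 10.4 and 9.55 RPKM in WT and 8.26 and 8.03 in KO, a log2 change of -0.26 ± 0.08 with a gap between the KO libraries of only 0.04. Pycr1, the reductase that completes proline, had 2.16 and 2.35 in WT and 2.07 and 1.45 in KO.

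The 6 transporters had a median log2 change of -0.07, and for 4 of them the genotypes overlapped. Over all genes the genotypes overlapped for 6855 of the 12391 tested, so an overlap is common and does not set the transporters apart. Slc1a4, an exchanger of alanine, serine, cysteine and threonine, had the lowest log2 change of the 33 genes tested. This rank holds for log2(RPKM + 1), since the KO mean of Trib3, at lower RPKM, was 60.8% of WT. Slc1a4 stood at 10.7 and 10.4 RPKM in WT and at 7.30 and 5.63 in KO, with 437 to 643 reads per library. The KO libraries lay below WT by more than the difference between the WT libraries, and the KO mean was 61.5% of WT. The log2 change was -0.63 ± 0.13 (SE, n = 2 each), with an interval from -0.96 to -0.31 and a limma adjusted p = 0.232. Its unadjusted p was under 0.05 in all 12 alternatives, in which its adjusted p ranged from 0.0511 to 0.879. Slc7a1, the cationic amino acid transporter, had 10.8 and 11.2 RPKM in WT and 10.4 and 8.69 in KO.

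Slc3a2 encodes the heavy chain that carries several amino acid exchangers to the cell surface, and it had the highest level of the list. It had 186 and 182 RPKM in WT, 224 in KO replicate 1 and 146 in KO replicate 2. Slc7a11, its light chain for cystine and glutamate exchange, took the same order more widely, with 7.27 and 5.42 RPKM in WT, 8.99 in KO replicate 1 and 3.82 in KO replicate 2. For both genes the KO libraries enclosed the WT libraries. The log2 change of Slc7a11 was -0.07 with all libraries, 0.45 without KO replicate 2 and -0.60 without KO replicate 1, and that of Slc3a2 was -0.02, 0.28 and -0.33. Slc7a8, another light chain of Slc3a2 and outside the list, had 130.2 and 127 RPKM in WT, 202 in KO replicate 1 and 108 in KO replicate 2. Slc7a5, the leucine-preferring light chain, did not follow, with 48.1 and 44.02 in WT and 45.6 and 48.3 in KO. Slc38a2, the sodium-coupled glutamine transporter, had 63.1 and 61.3 in WT and 65.8 and 53.1 in KO.

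All 6 aminoacyl-tRNA synthetases, the enzymes that charge tRNA with amino acids, had log2 changes below 0 (53.8% of all genes), and for 5 of them both KO libraries lay below both WT libraries (25.0% of all genes). The changes were small, from -0.31 for Gars to -0.08 for Aars, with a median of -0.12. Gars, which charges glycine, had 44.2 and 42.9 RPKM in WT and 35.0 and 34.6 in KO. Its KO mean was 80.0% of WT, with a log2 change of -0.31 ± 0.08 (SE, n = 2 each; limma adjusted p = 0.282), and the KO libraries differed by 0.01 on the log2 scale. Wars, for tryptophan, had 18.7 and 18.7 in WT and 16.2 and 16.6 in KO, with a log2 change of -0.18. Sars, for serine, had 30.1 and 32.0 in WT and 28.2 and 28.4 in KO. Nars, for asparagine, had 96.2 and 95.8 in WT and 84.6 and 92.5 in KO. Yars, for tyrosine, had 15.8 and 16.6 in WT and 15.5 and 14.5 in KO. Aars, for alanine, had 32.5 and 32.1 in WT and 32.1 and 29.1 in KO, and 14.3% of its exonic bases are shared with Exosc6 on the same strand. Whether the counting used strand is not given in the sources used here. Strand would not separate bases shared on the same strand, as in Aars. It touches the overlaps on the opposite strand given above for Ddit3 and Psph. It also touches Cebpb, with 20.7% of its exonic bases shared with Tmem189 on the opposite strand.

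**Figure D2:**
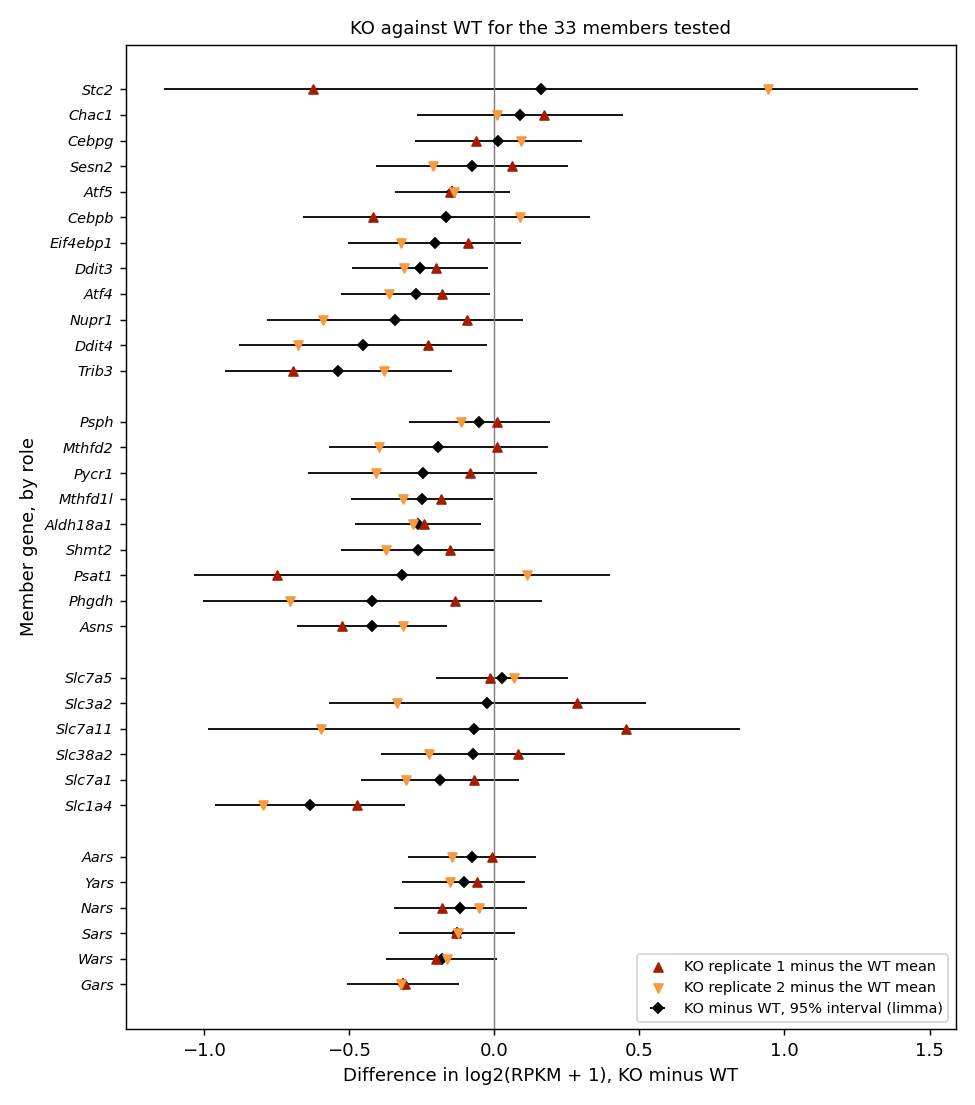
Difference in log2(RPKM + 1) between KO and WT for the 33 genes tested, grouped by role. Diamonds are the limma estimates with 95% intervals (n = 2 each) and triangles are the single KO libraries relative to the WT mean; Slc1a4, Asns, Gars and Trib3 have intervals well below 0, and the widest interval is that of Stc2.

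Both KO libraries lay below the WT mean for 21 of 33 genes (63.6%), against 35.1% of all genes tested, and both above it for 1, Chac1. Relative to the WT mean, 26 of 33 genes lay lower in KO replicate 1 and 27 in KO replicate 2. The medians were -0.14 and -0.30 on the log2 scale, against -0.01 and -0.02 over all genes tested. Shares over all genes were not counted for a single KO library or for both above the WT mean, so those counts have no background here. The median gap between the KO libraries was 0.22, against 0.07 between the WT libraries. Over all genes tested these median gaps were 0.14 and 0.10. A gap above 0.5 between the KO libraries was seen for 6 of the 33 genes (18.2%), namely Stc2, Slc7a11, Psat1, Slc3a2, Phgdh and Cebpb, against 8.29% of all genes. Between the WT libraries it was seen for 0 of the 33, against 3.91% of all genes. Stc2, Psat1 and Cebpb were higher in KO replicate 2, and Slc7a11, Slc3a2 and Phgdh were higher in KO replicate 1. The macrophage markers also differed between the KO libraries, as given above, and their part in these gaps was not tested.

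**Figure D3:**
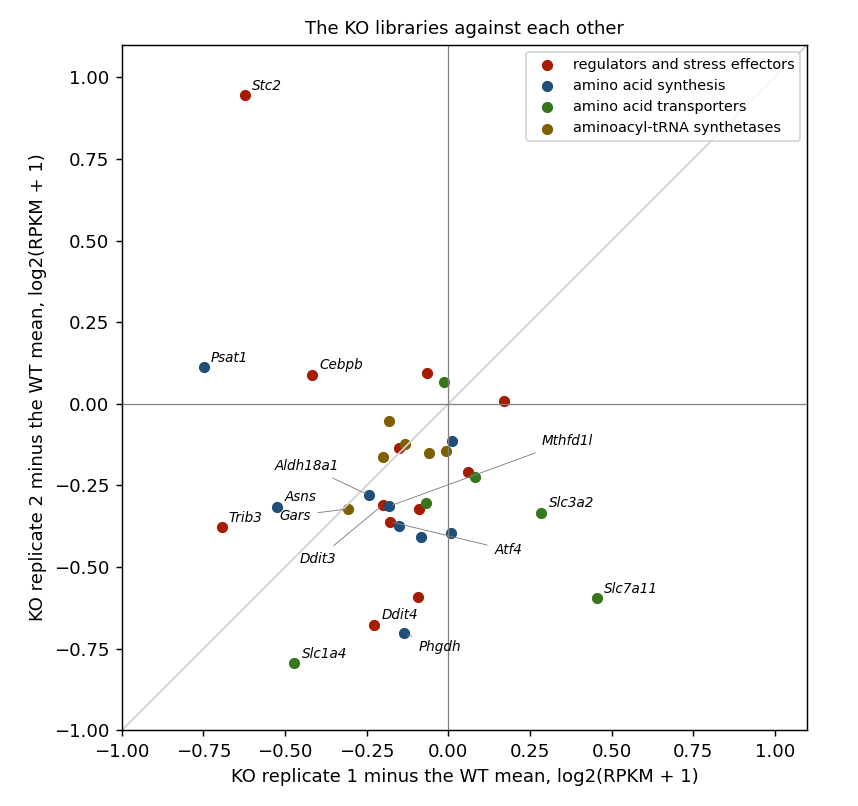
Each of the 33 genes in KO replicate 1 (x axis) and KO replicate 2 (y axis), both as the difference from the WT mean in log2(RPKM + 1), coloured by role. The grey diagonal marks equal values; most genes lie at the lower left, whereas Stc2, Psat1 and Cebpb lie above the horizontal line and Slc3a2 and Slc7a11 to the right of the vertical line.

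The other gene lists of the pathway had median log2 changes closer to that of all genes than the members had. By share of lower genes, some of these lists reached or passed the members, while others did not. Changes were below 0 for 13 of 14 other cytosolic synthetases, against 29 of 33 members. Both KO libraries lay below both WT libraries for 9 of those 14, against 19 of 33 members. At an unadjusted p under 0.05, 6 of 20 endoplasmic reticulum chaperones and sensors were lower, against 9 of 33 members. The 16 genes for eIF2alpha kinases, phosphatases and the exchange factor eIF2B had a median log2 change of -0.01, and 0 of them had an unadjusted p under 0.05 in either direction. Eif2ak4 had 4.43 and 4.15 RPKM in WT and 4.64 and 4.26 in KO, and Eif2ak3 6.12 and 5.59 in WT and 6.26 and 6.10 in KO. Eif2ak1 (11.5 and 10.9 in WT, 11.7 and 13.3 in KO) and Eif2ak2 (8.77 and 8.00 in WT, 9.13 and 9.61 in KO) had both KO libraries above WT. None of the 4 kinase mRNAs lay lower in KO on average, and phosphorylation was not measured. Ppp1ca (190.0 and 194 in WT, 180.2 and 194 in KO), Impact and Ppp1r15b, the most abundant of this list, all overlapped between the genotypes.

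The cytosolic tRNA synthetases outside the list were lower by little: 13 of 14 had changes below 0 (53.8% of all genes), with a median of -0.11, and 0 had an unadjusted p under 0.05. For 9 of the 14 both KO libraries lay below both WT libraries, and for 0 above them (25.0% and 19.7% of all genes). The 6 synthetases of the list had a median of -0.12. Tars had 51.5 and 44.9 RPKM in WT and 43.8 and 42.1 in KO, Rars 29.3 and 30.3 in WT and 26.4 and 28.0 in KO, and Mars 34.03 and 37.4 in WT and 34.8 and 30.1 in KO. Of the mitochondrial synthetases, 11 of 17 were below 0 (53.8% of all genes) with a median of -0.07, and 2 were lower and 0 higher at that p (7.42% and 4.33% of all genes). Their most abundant member, Iars2, had 14.04 and 14.3 RPKM in WT and 13.7 and 12.5 in KO. Other amino acid transporters (7 of 14 below 0, median 0.03) and other enzymes of amino acids and folate (9 of 21 below 0, median 0.04) lay on both sides of 0. At an unadjusted p under 0.05, 2 of 14 transporters and 1 of 21 enzymes were lower and 0 higher, where 7.42% of all genes were lower, a share that the enzymes did not reach. The transporters were Slc38a1, a glutamine carrier with 20.1 and 18.1 RPKM in WT and 15.1 and 15.7 in KO, and Slc7a6, a further light chain of Slc3a2, with 15.8 and 14.7 in WT and 12.9 and 12.8 in KO. Glul, the glutamine synthetase, was the most abundant enzyme, with 782 and 839 RPKM in WT, 1113 in KO replicate 1 and 705 in KO replicate 2.

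Of the other genes reported as ATF4 or stress targets, 16 of 22 were below 0 (median -0.10), with 2 lower and 0 higher at an unadjusted p under 0.05. Of all genes 53.8% were below 0, 7.42% were lower at that p and 4.33% higher, so that the 2 of 22 lie near the share of all genes. They were Hmox1, the haem oxygenase, with 316 and 256 RPKM in WT and 179.8 and 203 in KO, and Gdf15, a secreted stress hormone, with 6.12 and 5.43 in WT and 3.65 and 3.06 in KO (log2 change -0.64 ± 0.11, limma adjusted p = 0.195). Hmox1 is also a target of other stress factors. Of 20 endoplasmic reticulum chaperones and sensors, which answer mainly to ATF6 and XBP1, 13 were below 0 (53.8% of all genes) with a median of -0.06, and 6 were lower and 0 higher at that p (7.42% and 4.33% of all genes). Hspa5, the main chaperone, had 344 and 319 RPKM in WT and 244 and 250.2 in KO. Creld2 and Hyou1 had log2 changes of -0.43 and -0.42 with limma adjusted p-values of 0.198 and 0.195. Calr and Pdia3, the most abundant of the list, overlapped between the genotypes. None of the genes in these lists passed an FDR of 0.05, and differences between the lists were not tested.

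**Figure D4:**
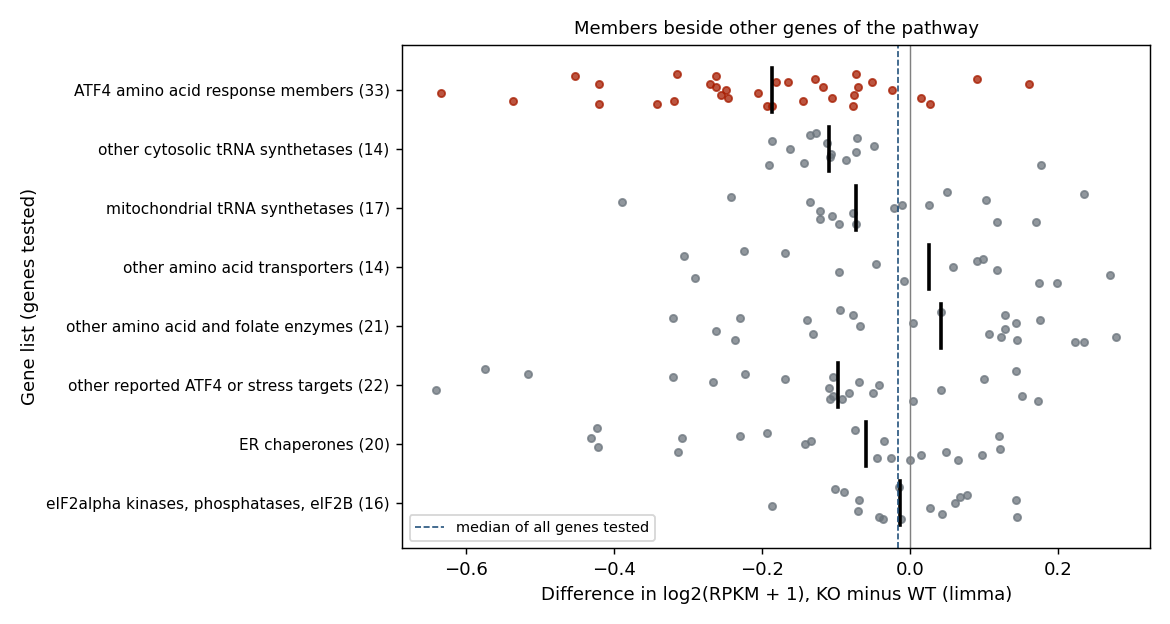
Limma log2 change of each tested gene (points) and the median (black bar) for the ATF4 amino acid response genes and 7 other lists, with the number of genes tested in brackets and the median of all genes as a dashed line. The bar of the ATF4 list stands at -0.19, that of the other cytosolic synthetases at -0.11 and that of the eIF2alpha list at -0.01.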

How the data were processed

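RNA was sequenced from Leydig cells of 2 WT and 2 C2orf74 KO libraries, grouped by the genotype in the labels and numbered in deposition order. Per the labels' protocols, Trizol was used for extraction and a standard Illumina procedure for the libraries. Per the submitters' processing notes the genome build was mm9. For the aligner, counting tool, strand setting and annotation, no name is given in the sources used here.

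The deposited tables hold 1 value for each of 27357 Ensembl genes without a unit. They were read as the authors' RPKM, because nonzero values times exonic length in GENCODE M21 (GRCm38) gave whole reads within 0.01 reads for 90.4% to 90.7% of genes per library. Read numbers are recovered in this way and are approximate for Atf4, Slc38a2 and Nars, whose values did not come out whole. Symbols were matched for 27306 IDs and not for 51.

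The test used the 12391 genes that reached 1 RPKM in 2 or more libraries. KO was compared with WT on log2(RPKM + 1), a scale on which changes of genes with low values come out too small, with limma 3.58.1 in R 4.3.3 (a model of genotype only, 2-sided moderated test with a mean-variance trend, Benjamini-Hochberg adjustment over all genes tested). Residual degrees of freedom were 2 and prior ones 3.08. On simulated libraries (5 simulations of KO against WT with 200 changed genes among a median of 12104) the share of changed genes called at an FDR of 0.05 was 79.7% for 2-fold and 99.0% for 4-fold changes, with 9.55% false calls. The false calls thus exceeded the FDR that was set. The simulated noise came from the variances of the same fit. Smaller changes were not simulated. The log2 changes of the members ran from -0.63 to 0.16, so these shares do not say how often such changes would be called. Python 3.11.15 with pandas 2.3.3, NumPy 2.4.6 and Matplotlib 3.10.9 served for summaries and figures.

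The members, roles and gene lists were chosen with earlier results of these data known. All members were named. Of each other list up to 3 genes of the highest mean RPKM and the eIF2alpha kinases were named. Insl3, Cyp17a1, Aldh1l2, Mthfd2l, Slc7a6, Gdf15, Creld2 and Hyou1 were named after their values were seen. Each alternative but voom altered 1 choice: the scaling (quantile normalization, trimmed-mean rescaling), the filter (none, or 5 RPKM), the pseudocount (0.1), the variance trend (none), a replicate block, or a left-out library. Voom on recovered reads changed both the test and the genes, since genes without whole reads were dropped (10855 genes and 30 members). Leaving out a library with the filter reapplied to the other 3 was chosen after the data were seen.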

Additional observations from a re-analysis of the deposited data

How the results depend on the processing

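No gene passed an FDR of 0.05 under the 8 alternatives that kept all libraries. When a library was left out, between 0 and 306 genes of the whole table passed; without KO replicate 1 there were 74, or 306 with the filter reapplied, and without KO replicate 2 there were 4, or 139 with the filter reapplied. Among the members, the log2 change without KO replicate 1 was -0.68 for Ddit4, -0.80 for Slc1a4, -0.59 for Nupr1 and 0.94 for Stc2. For fits that leave 1 library in a genotype, adjusted p-values of single members are not given, whether small or large. Without KO replicate 2 the log2 change of Psat1 was -0.75. The count of members lower at an unadjusted p under 0.05, 9 with all libraries, ranged from 2 to 19 when a library was left out, and that of members higher ranged from 0 to 2. It was 5 under quantile normalization. A replicate block from the suffix shared by 1 WT and 1 KO title gave 5 members lower, against 5.36% of all genes. The deviations of libraries with the same suffix had a correlation of -0.0959 across genes, so the labels were not treated as pairs. The median log2 change of the members lay between -0.30 and -0.14 over all alternatives. Slc3a2 turned from -0.02 to 0.033 under quantile normalization. Leaving out a library turned the sign of 12 members, whose log2 changes then ranged as follows: Stc2 -0.62 to 0.94, Slc7a11 -0.60 to 0.45, Psat1 -0.75 to 0.11, Slc3a2 -0.33 to 0.28, Cebpb -0.42 to 0.089, Mthfd2 -0.40 to 0.0094, Slc38a2 -0.22 to 0.081, Sesn2 -0.21 to 0.060, Chac1 -0.027 to 0.21, Cebpg -0.092 to 0.12, Psph -0.11 to 0.011 and Slc7a5 -0.035 to 0.089. The cause was not tested. Depth limits mainly Chac1, Trib3, Cebpb, Pycr1 and Vldlr, which rest on 45 to 192 reads per library.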
